A study of Mus musculus with 8 samples.

Results

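Slc14a1, Slc14a2, Clca3a1, Clca3a2, Clca1 and Clca2 are 2 urea transporter genes and 4 members of the Clca family, and they were followed library by library in mouse KPC tumours. The 6 genes were taken by name from a table of 57132 genes, and they were chosen by the difference in counts between the treated and the control libraries used here. All 6 had at least 1 read in some library, and 4 of them (Slc14a1, Clca3a1, Clca3a2 and Clca2) were among the 16588 genes that passed the filter on low counts. Slc14a2 and Clca1 did not pass and are given as reads. For the 6 genes that difference is therefore given as a description, with no test.

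Bulk RNA came from subcutaneous KPC tumours, a mouse model of pancreatic cancer. The PBS group (4 libraries) received buffered saline. The PDT group (4 libraries) received Ce6@D4-EV, a carrier named by the submitters that holds the photosensitiser chlorin e6, followed by light. The sources used here state no mouse strain, age, dose or time, and they call the tissue sorted without naming a gate. A group with light or carrier alone was not analysed here. Nothing in the labels ties each library to its own mouse, so errors and p-values measure only the spread between these samples, which may be technical.

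Summed gene counts ran from 35742024 to 48804713 reads per library, and 3 reads, the limit that a count of 0 allows, corresponded to 0.0665 to 0.0872 CPM, the usual depth-scaled count, here with TMM-scaled libraries. Such limits cover counting error only and treat reads as counted independently. Between 77.9% and 83.8% of counts from 1 to 20 were even. If reads were counted in pairs, the limit of 3 reads is too low. PBS 1 stood apart: along principal component 1, with 25.5% of the variance, it lay at −129.6, PBS 2 to PBS 4 at −4.43 to 8.66 and the PDT libraries at 17.6 to 36.6. All 8 tumour epithelium markers on the list passed the count filter, and their summed level was 3726 to 7512 CPM in PBS and 3245 to 6434 CPM in PDT. In bulk RNA, fewer cells of a type and less RNA per cell cannot be told apart.

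Urea transporters are membrane channels that let urea cross the cell membrane down its gradient. Slc14a1 encodes UT-B, known from red blood cells, where it carries the Kidd blood group, and from the vasa recta of the kidney, urothelium and astrocytes. Slc14a2 encodes the UT-A proteins of the kidney tubule. Clca proteins were named as regulators of calcium-activated chloride channels and are secreted or membrane-bound. Clca1 is a product of mucus-secreting goblet cells, Clca2 is known from stratified epithelium and as a p53 target, and Clca3a1 is known as an adhesion molecule of lymphatic endothelium. Clca3a2 is its close neighbour and relative.

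The Clca genes lie side by side in RefSeq's order for GRCm38.p6, with Clca3a1, Clca3a2 and Clca3b next to each other. The 250 bases upstream of the Clca3a1 start are shown because Clca3a1 is the Clca gene whose groups did not overlap. The capitals mark a match to the letters CCAAT.
Clca3a1, chr3:144760978-144761227, minus strand: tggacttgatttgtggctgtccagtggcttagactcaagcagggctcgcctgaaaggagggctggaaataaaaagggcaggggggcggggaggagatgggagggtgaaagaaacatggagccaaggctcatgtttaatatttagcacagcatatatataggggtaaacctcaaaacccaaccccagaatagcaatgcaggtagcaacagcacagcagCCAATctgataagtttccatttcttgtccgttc

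These coordinates and letters are RefSeq's for GRCm38.p6, while the submitters name GRCm39. CCAAT, searched on both strands, was found in the Clca3a1 window, starting 33 bases before the start, and in 33.8% of 32851 promoter windows of the same length. TATAAA, searched on both strands, was not found in it and was in 12.4% of all windows. These matches describe letters and not bound sites.

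The Clca3a1 and Clca3a2 transcripts are nearly the same over long stretches, which bears on how reads could be assigned. Of the 50-base windows of the Clca3a1 transcript (GENCODE M21), 23.6% occurred identically in Clca3a2 and 3.74% in Clca3b, and 0 occurred in Clca1 or Clca2. The longest identical run between Clca3a1 and Clca3a2 spans 242 bases, from base 1021 to base 1262 of the Clca3a1 transcript and inside its longest reading frame. It is printed because a read within it fits both genes.
Clca3a1 and Clca3a2, shared run: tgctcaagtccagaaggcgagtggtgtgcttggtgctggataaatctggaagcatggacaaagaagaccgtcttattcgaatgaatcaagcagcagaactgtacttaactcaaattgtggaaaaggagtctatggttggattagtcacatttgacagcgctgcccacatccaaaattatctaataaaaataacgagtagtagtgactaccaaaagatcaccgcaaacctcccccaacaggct

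The sources used here do not name the counting tool, and the split of reads between this pair is therefore uncertain. Slc14a1 and Slc14a2 shared no identical 50-base window.

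Slc14a1 (ENSMUSG00000059336), the urea channel UT-B, had 278, 640, 550 and 689 reads in PBS 1 to PBS 4. It had 158, 156, 104 and 94 reads in PDT 1 to PDT 4. In CPM these were 7.56, 15.3, 14.5 and 20.03 in PBS and 3.503, 3.98, 2.32 and 2.30 in PDT. Every PBS library lay above every PDT library, PBS 1 was the lowest of its group, and the highest PDT library was PDT 2. The group means were 14.3 ± 5.14 and 3.02 ± 0.848 CPM (SD, n = 4), a PBS level 4.74 times the PDT level and a log2 difference of −2.24 ± 0.32 (SE). Without PBS 1 the log2 difference was −2.45 ± 0.27, and without PBS 4, the highest library, it was −2.02 ± 0.33.

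Slc14a2 (ENSMUSG00000024552), the kidney urea transporter on the other side of the pair, had 0 reads in 7 libraries. The remaining library, PDT 4, had 8 reads, or 0.196 CPM, above the limit of 3 reads, which treats reads as counted independently. Gm6133, a gene on the other strand that overlaps Slc14a2 without shared exon bases, had 75 reads in all, 14 of them in PDT 4. Transcripts of Slc14a2 were thus not detectable at this depth in any PBS library, and the urea transporter signal of these tumours was that of Slc14a1.

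Clca3a1 (ENSMUSG00000056025), the adhesion molecule of lymphatic endothelium, had 426, 743, 657 and 890 reads in PBS 1 to PBS 4. In PDT 1 to PDT 4 it had 217, 186, 251 and 163 reads. In CPM these were 11.6, 17.7, 17.3 and 25.9 in PBS and 4.81, 4.74, 5.597 and 3.98 in PDT. The groups did not overlap, and the PDT libraries lay closer together than the PBS libraries, of which PBS 1 was lowest and PBS 4 highest. The means were 18.1 ± 5.88 and 4.78 ± 0.66 CPM (SD, n = 4), a PBS level 3.79 times the PDT level and a log2 difference of −1.92 ± 0.25 (SE). Without PBS 1 it was −2.08 ± 0.22. An annotated antisense gene, Gm34866, overlaps 170 exonic bases of Clca3a1 and had 16 reads over the 8 libraries. These were 0 in every PBS library and 0, 9, 6 and 1 in PDT 1 to PDT 4.

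In the fit across all 16588 tested genes, the log2 difference was below 0 for 4 of the 4 tested members and for 50.2% of all genes. Slc14a1 and Clca3a1 were lower with groups that did not overlap, as were 850 of all genes (5.12%), and Clca3a2 and Clca2 were not. Since this contrast chose the genes, nothing is read from these counts. Over the 8 fits that each left out 1 library, the log2 difference ranged from −2.45 to −2.02 for Slc14a1 and from −2.08 to −1.68 for Clca3a1.

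**Figure D1:**
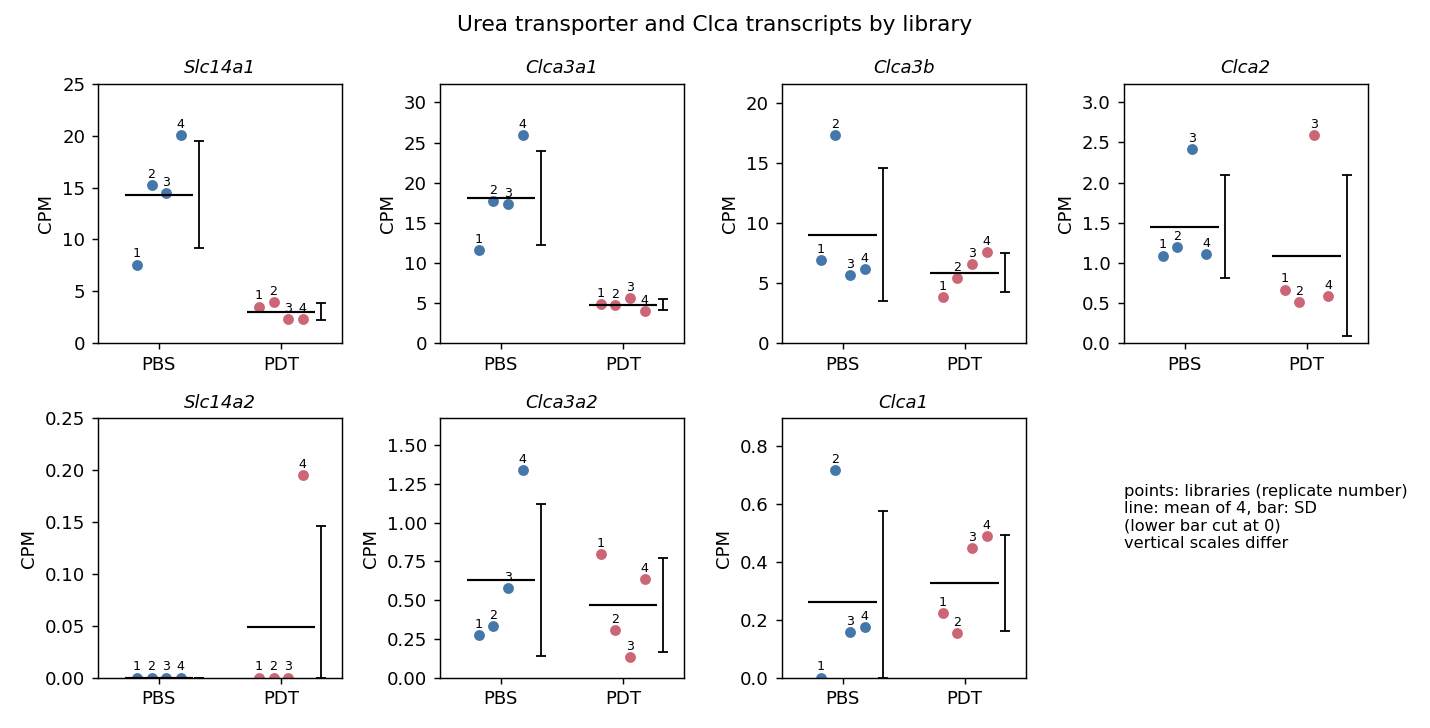
Level in CPM (vertical axes, starting at 0 and differing between panels) of the 6 genes and Clca3b in each PBS and PDT library. Points carry the replicate number, lines are means of 4 libraries and bars are SD. Slc14a1 and Clca3a1 separate without overlap (7.56 to 20.03 against 2.30 to 3.98 CPM, and 11.6 to 25.9 against 3.98 to 5.597 CPM), and the other panels overlap.

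Clca3a2 (ENSMUSG00000028262), the near-copy of Clca3a1, was scarce and varied between libraries. From PBS 1 to PBS 4 it had 10, 14, 22 and 46 reads. From PDT 1 to PDT 4 it had 36, 12, 6 and 26 reads. The groups overlapped, with PBS 4 highest at 1.34 CPM and PDT 3 lowest at 0.134 CPM. The log2 difference was −0.42 ± 0.86 (SE), and it turned to 0.26 ± 0.998 without PBS 4. Whether Clca3a2 and Clca3a1 differ in their response was not tested, and the reads they share limit such a comparison.

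Clca2 (ENSMUSG00000036960), the gene of stratified epithelium, had 40, 50, 92 and 38 reads in PBS and 30, 20, 116 and 24 in PDT. One library of each group stood high, PBS 3 at 2.42 CPM against 1.09 to 1.19 in the other PBS libraries, and PDT 3 at 2.59 CPM against 0.51 to 0.665 in the other PDT libraries. The log2 difference was −0.41 ± 0.67 (SE). It was −1.30 ± 0.69 without PDT 3 and −0.050 ± 0.74 without PBS 3, so its size rested on these 2 libraries. PBS 3 also held the highest summed level of stratified epithelium markers, 104 CPM against 15.5 to 27.6 in the other PBS libraries, but PDT 3 was at 19.3 CPM within the PDT range of 15.5 to 54.9. Their part in the Clca2 values was not tested.

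Clca1 (ENSMUSG00000028255), the goblet cell product, had 0, 30, 6 and 6 reads in PBS and 10, 6, 20 and 20 in PDT. These are 0.262 ± 0.312 and 0.327 ± 0.165 CPM (SD, n = 4), with overlapping groups. Of 10 goblet cell and mucus genes, among them Tff2, Agr2 and Spdef, all passed the count filter and 0 passed the test in edgeR, with 0 at an unadjusted p under 0.05 (16.5% of all tested genes, 2737, had one) and 0 called by DESeq2. Their median log2 difference was 0.12, 5 were above 0 and 5 below. Fcgbp, a mucus protein, had the smallest p of these, at −1.79 ± 0.92 (SE, adjusted p = 0.368 by edgeR), and PBS 3 held 64.0 CPM of it against 1.51 to 6.58 in the other PBS libraries. Without PBS 3 its log2 difference was 0.30.

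Of the Clca genes outside the 6, Clca3b (ENSMUSG00000037033) was measured well. It had 254, 726, 216 and 212 reads in PBS and 172, 212, 296 and 310 in PDT, with 17.3 CPM in PBS 2 and 3.81 to 7.58 CPM in the 7 other libraries. The log2 difference was −0.63 ± 0.38 (SE, adjusted p = 0.457 by edgeR), and −0.09 ± 0.297 without PBS 2. PBS 2 also had the highest adipocyte marker sum in PBS, 387 CPM against 33.7 to 37.01, and the highest skeletal muscle sum, 1383 CPM against 53.7 to 327. PDT 3, with an adipocyte sum of 485 CPM, had 6.60 CPM of Clca3b, and PDT 2, with a muscle sum of 3399 CPM, had 5.40 CPM. The part of these cells in the Clca3b values was not tested. Clca4a had 47 reads in all, Clca4b had 0 in every library, and the pseudogene Clca4c-ps had 2.

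Per kilobase of exon, the order of mean levels in PBS was Clca3a1 at 4.65 ± 1.51, Slc14a1 at 3.59 ± 1.29 and Clca3b at 2.68 ± 1.65 RPKM (SD, n = 4). RPKM was computed here from CPM and exon length. The spreads of these neighbours met, but the genes share libraries, so spreads between libraries do not compare them. Clca3a1 had more CPM than Slc14a1 in each of the 8 libraries, at exon lengths of 3899 and 3995 bases. Clca2 followed at 0.312 ± 0.139, Clca3a2 at 0.159 ± 0.123 and Clca1 at 0.0693 ± 0.0827, again with spreads that met. In PDT the first of these was Clca3b at 1.74 ± 0.483, then Clca3a1 at 1.23 ± 0.169 and Slc14a1 at 0.757 ± 0.212. The share of Clca family reads that fell on Clca3a1 was 56.6%, 47.2%, 66.2% and 74.7% in PBS 1 to PBS 4. In PDT 1 to PDT 4 it was 45.4%, 42.7%, 36.4% and 29.9%. The family total was 20.5 to 37.5 CPM in PBS and 10.6 to 15.4 CPM in PDT. Both the shares and the total include Clca3a1, which this contrast chose, so they are not a result about the family as a whole. Each other Clca gene with reads overlapped between the groups.

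Slc14a1 and Clca3a1 also followed each other within the PBS group, which the choice of the genes by group means did not require. PBS 1 was lowest and PBS 4 highest for both, at log2 deviations from the PBS mean of −0.84 and 0.57 for Slc14a1 and −0.59 and 0.57 for Clca3a1. PBS 2 and PBS 3 lay between, 0.10 to 0.17 above the mean for Slc14a1 and −0.01 to 0.02 from it for Clca3a1. In PDT the order differed, since PDT 3 was highest for Clca3a1 and next to lowest for Slc14a1. The ratio of Slc14a1 to Clca3a1 was 0.653 to 0.861 in PBS and 0.414 to 0.839 in PDT. PBS 1 stood apart over all tested genes along principal component 1, and its part in this shared order was not tested. With 4 libraries a group this is a description.

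**Figure D2:**
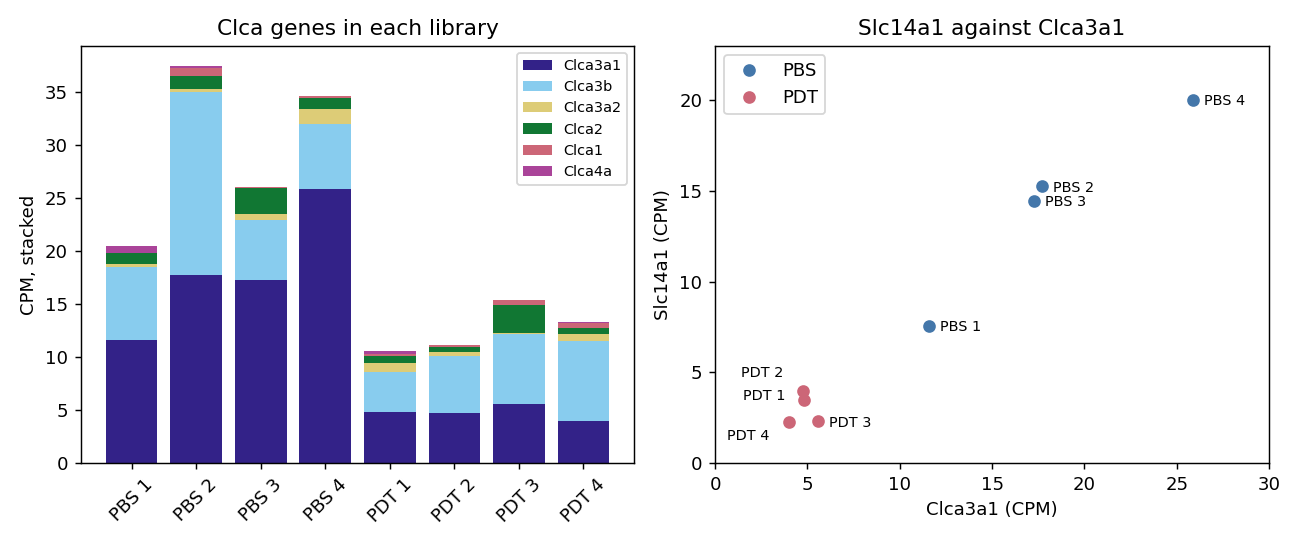
Left, stacked CPM (vertical axis) of 6 Clca genes in each library, with family totals of 20.5 to 37.5 CPM in PBS and 10.6 to 15.4 CPM in PDT. Clca3a1, chosen by its difference between the groups, is part of these totals. Right, Slc14a1 against Clca3a1 in CPM, 1 point per library, where PBS 1 is the lowest and PBS 4 the highest PBS library on both axes.

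The genes whose profile over the 8 libraries was nearest to each were then listed, by the root mean square difference of gene-centred log2 CPM among 13191 genes with a mean of at least 1 CPM, leaving out mitochondrial and ribosomal RNA genes and gene models with provisional names. A small value means that 2 genes went up and down together by the same size. For Slc14a1 the nearest were Nptx1, a neuronal pentraxin, at 0.32, Clca3a1 at 0.33, the zinc transporter Tmem163 at 0.39 and Megf10, an engulfment receptor of glia and muscle progenitors, at 0.41, against a median of 1.22. For Clca3a1 they were Megf10 at 0.24, Nptx1 at 0.29, Insm1, a transcription factor of neuroendocrine cells, at 0.32 and Siglec15, a sialic acid-binding lectin of osteoclasts and myeloid cells, at 0.33, against a median of 1.03. Slc14a1 itself came at place 5 in that order. These genes were picked for likeness to genes that were lower in PDT, so their own differences are not evidence of anything further. The measure runs over both groups, so it includes the difference that chose Slc14a1 and Clca3a1. Their closeness to each other and the gap to the medians are therefore partly built in.

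Siglec15 is also the immediate neighbour of Slc14a1 on the chromosome, on the side away from Slc14a2. Its reads numbered 56, 72, 118 and 146 from PBS 1 to PBS 4. From PDT 1 to PDT 4 they numbered 19, 30, 34 and 22. Its CPM did not overlap between the groups, and its log2 difference was −2.09 ± 0.54 (SE). Beyond it, Epg5, an autophagy gene, had a log2 difference of −0.63 ± 0.23 and Pstpip2, an adaptor of myeloid cells, of 0.51 ± 0.31. Setbp1, the first gene tested past Slc14a2, differed by −0.43 ± 0.17. Around the Clca genes, Sh3glb1 (−0.06 ± 0.17), Selenof (−0.08 ± 0.13) and Odf2l (−0.01 ± 0.16) were near 0, and Hs2st1 was at −0.43 ± 0.12. Col24a1 was at −0.18 ± 0.64, an error too wide to read as no difference. PBS 1 held 11.05 CPM of Col24a1, the other PBS libraries at most 3.26 CPM and the PDT libraries 2.45 to 4.45 CPM. Siglec15 was picked for its likeness to Clca3a1, so its difference is given with no test. Of the 10 other neighbours tested, Pard6g and Znhit6 included, edgeR called 0 at an adjusted p under 0.05. DESeq2 called 1, Hs2st1 (adjusted p = 0.0276). In edgeR 3 (Epg5, Setbp1 and Hs2st1) were under 0.05 before adjustment, against 16.5% of all tested genes. Those 3, like Siglec15, were lower in PDT with groups that did not overlap, as were 5.12% of all tested genes. The neighbours were looked up after the profiles were seen.

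**Figure D3:**
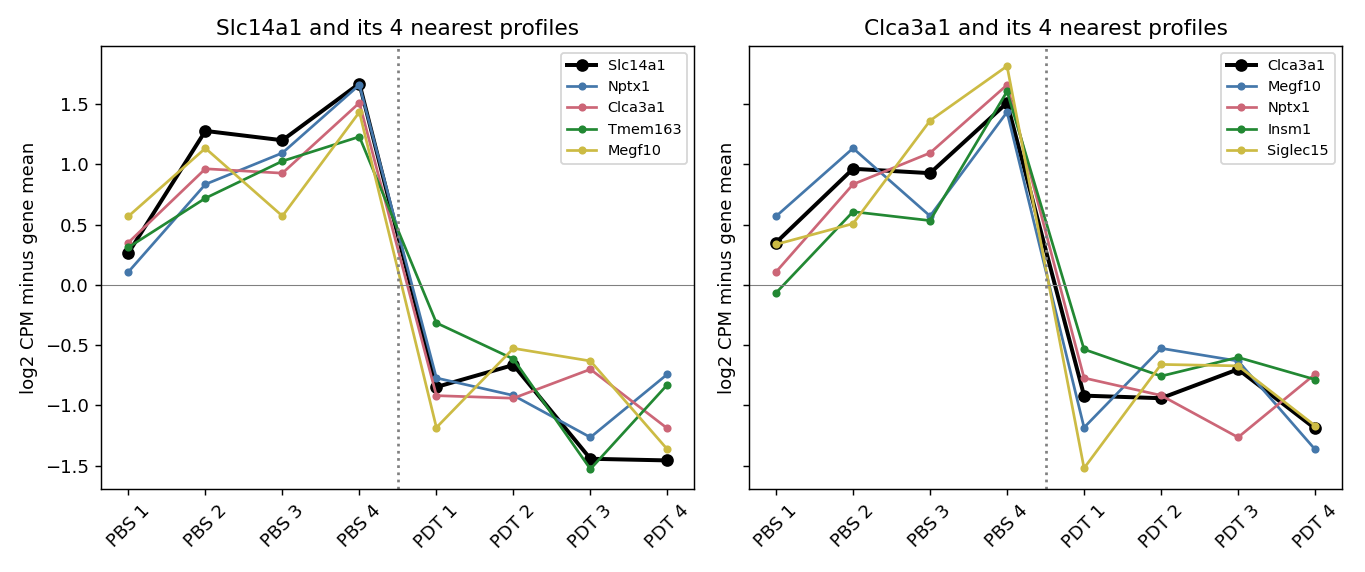
Log2 CPM minus each gene's mean (vertical axis) in the 8 libraries (horizontal axis) for Slc14a1 (left) and Clca3a1 (right) in black with the 4 nearest profiles in colour. Lines only join values of 1 gene. In each panel the black profile is above 0 in all PBS and below 0 in all PDT libraries.

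Genes around urea and water transport were taken from lists and tested over all genes. Of 10 genes of the urea cycle and the arginases, 5 passed the count filter and 0 passed the test in edgeR (1 at an unadjusted p under 0.05, and 1 called by DESeq2), with a median log2 difference of 0.34. That 1 gene was Arg1, arginase 1, which splits arginine into urea and ornithine and is abundant in myeloid cells, with a mean of 202 ± 53.1 CPM over the PBS and 386 ± 128 CPM over the PDT libraries (SD, n = 4). It differed by 0.93 ± 0.24 on the log2 scale (SE), with an adjusted p of 0.0985 in edgeR and 0.00334 in DESeq2. Ass1, argininosuccinate synthase, differed by 0.34 ± 0.17 (adjusted p = 0.35 by edgeR). Cps1 and Otc, the liver enzymes that open the cycle, had 6 and 2 reads in all. Of 11 aquaporins 6 were tested and 0 passed in edgeR, with 0 at an unadjusted p under 0.05 and 0 in DESeq2, and a median of −0.02. Aqp3 and Aqp9, which also carry glycerol and urea, differed by −2.64 ± 1.61 (adjusted p = 0.457) and 0.49 ± 0.69 (adjusted p = 0.796). Aqp3 had 0 reads in PBS 1 and PBS 2, 116 in PBS 3 and 54 in PBS 4, and without PBS 3 it differed by −1.50.

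The osmotic response guards cells against salt and urea. Of its 6 tested genes edgeR called 1, with 3 under 0.05 before adjustment (16.5% of all tested genes were), and DESeq2 called 3. The log2 difference was below 0 for 5 of the 6, against 50.2% of all tested genes, with a median of −0.48 against −0.002. Hspa4l, a heat shock protein first known as an osmotic stress protein, fell. Its mean was 110.4 ± 16.8 CPM in the PBS libraries and 63.1 ± 6.44 CPM in the PDT libraries (SD, n = 4), and edgeR gave −0.81 ± 0.14 on the log2 scale (SE) with an adjusted p of 0.0497. Hspa4l lost its call without any 1 of the 8 libraries, at adjusted p-values of 0.0544 to 0.163. Slc5a3, the myo-inositol transporter, had 20.7 ± 3.70 CPM in PBS and 11.4 ± 1.32 CPM in PDT. Its groups did not overlap, as for 5.12% of all tested genes that were lower in PDT, and it differed by −0.86 ± 0.18 (edgeR's adjusted p 0.0663). Nfat5, the transcription factor of this response, differed by −0.84 ± 0.22 (adjusted p = 0.0985) and is named after its values were seen. The taurine transporter Slc6a6 (−0.16 ± 0.23), the vasopressin receptor gene Avpr1a (−0.13 ± 0.42) and the kinase gene Sgk1 (0.14 ± 0.17) were nearer to 0.

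Chloride channels and the integrins reported as partners of Clca proteins were read next. Of 14 anoctamins, bestrophins and Cftr, 9 were tested, edgeR called 0 with 1 under 0.05 before adjustment, and DESeq2 called 0, at a median of 0.01. Ano1, a calcium-activated chloride channel, had 205 ± 31.9 CPM in PBS, 143 ± 27.8 CPM in PDT (SD, n = 4) and a log2 difference of −0.52 ± 0.17 (SE), with an adjusted p of 0.158 in edgeR, and the lipid scramblase Ano6 differed by −0.36 ± 0.17 (adjusted p = 0.312). Of 5 integrin genes edgeR called 0, with 3 under 0.05 before adjustment (16.5% of all tested genes were), and DESeq2 called 2, Itgam and Itgb2. Their median was 0.21, with 3 above 0 and 2 below. For Itgam and Itgb2, the chains of the leukocyte integrin Mac-1, every PDT library lay above every PBS library, as for 829 of all tested genes (5%), with differences of 0.95 ± 0.24 (adjusted p = 0.0978) and 0.57 ± 0.14 (adjusted p = 0.0951). Itga6 and Itgb4, which join in the epithelial integrin of hemidesmosomes, lay on the other side of 0, at −0.55 ± 0.20 (adjusted p = 0.201) and −0.27 ± 0.28 (adjusted p = 0.701), and are named after their values were seen. Type 2 cytokine signalling drives Clca1 in airway goblet cells. Of 7 genes of that axis edgeR called 0, with 2 under 0.05 before adjustment, and DESeq2 called 1, Chil3. Their median was 0.22, with 4 above 0 and 3 below. Chil3, a chitinase-like protein of macrophages, differed by 3.07 ± 0.69 (adjusted p = 0.0791 by edgeR), and by 4.01 without PBS 1. Retnla, another gene of type 2 macrophages, was at −1.59 ± 0.83 (adjusted p = 0.375) and the decoy receptor Il13ra2 at −0.82 ± 0.69 (adjusted p = 0.613), both named after their values were seen. Il4ra differed by 0.26 ± 0.12 (adjusted p = 0.29).

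Markers of cell types known to express Slc14a1 or the Clca genes were read beside them. The log2 difference of erythroid markers was below 0 for 7 of 7 tested, against 50.2% of all tested genes, with a median of −1.43. In edgeR 0 of them were called and 4 were under 0.05 before adjustment, against 16.5% of all tested genes. DESeq2 also called 0 of them. Alas2, the heme synthesis enzyme of red cells, was at −1.45 ± 0.44 (SE, adjusted p = 0.139 by edgeR) and Hbb-bt, a beta globin, at −1.41 ± 0.49 (adjusted p = 0.182). Without PBS 4, which held 304 CPM of Hbb-bt against 56.0 to 148 in the other PBS libraries, they were at −0.87 and −0.71. The summed erythroid level was 1007, 2641, 811 and 4445 CPM in PBS 1 to PBS 4 and 592 to 1355 CPM in PDT. PBS 4 was highest both here and for Slc14a1, and PBS 1 and PBS 3 had erythroid sums within the PDT range. The part of red cells in the Slc14a1 level was not tested.

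Lymphatic endothelium markers had a median of −0.36, with 5 of 8 below 0. By edgeR 0 passed, with 2 under 0.05 before adjustment, and DESeq2 called 1, Pdpn, which was higher in PDT by 0.70 ± 0.18 (SE, adjusted p = 0.0978 by edgeR) and is also made by fibroblasts. Ccl21a, a chemokine of lymphatic vessels, was at −0.69 ± 0.26 (adjusted p = 0.215). The summed level overlapped, at 93.1 to 181 CPM in PBS and 105 to 183 CPM in PDT. Blood endothelium markers had a median of 0.27 and a summed level of 121 to 139 CPM in PBS and 120 to 169 CPM in PDT, with 0 of 11 called in edgeR, 2 at an unadjusted p under 0.05 and 0 in DESeq2. Its genes of smallest p, Tie1 (0.50 ± 0.22) and Plvap (0.57 ± 0.26), had adjusted p-values of 0.287 and 0.298.

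Markers of astrocytes and Schwann cells were scarce, at 6.45 to 23.8 CPM in PBS and 8.64 to 19.96 CPM in PDT in sum, and urothelium and kidney tubule markers scarcer, at 1.81 to 3.52 and 0.535 to 1.596 CPM, with Upk2, Umod and Slc34a1 at 0 reads in every library. Both lists held 0 calls in edgeR, with 0 and 1 genes at an unadjusted p under 0.05 and 0 in DESeq2. Fibroblast markers summed to 7519 to 14949 CPM in PBS and 11979 to 13675 CPM in PDT with a median of −0.03. Of these 11 genes edgeR called 0, with 3 under 0.05 before adjustment, and DESeq2 called 1, Col1a1 (0.54 ± 0.18, SE). Macrophage markers had a log2 difference above 0 for 8 of 8, with a median of 0.46, where 50.2% of all tested genes were below 0. Of these 8 edgeR called 1, with 5 under 0.05 before adjustment (16.5% of all tested genes were), and DESeq2 called 3. Cd68 rose by 0.85 ± 0.15 (adjusted p = 0.0497 by edgeR, a call lost without any 1 library). C1qa was at 1.02 ± 0.22 (SE), with an adjusted p of 0.0663 in edgeR and 0.000245 in DESeq2. For both genes every PDT library lay above every PBS library, as for 5% of all tested genes. The summed level of the 8 markers did not overlap, at 807 to 1451 CPM in PBS and 1540 to 1868 CPM in PDT. The tumour epithelium median was −0.11, that of stratified epithelium −0.61, that of adipocytes 0.14 and that of skeletal muscle 1.63, each with 0 calls in edgeR and in DESeq2 and with 1, 0, 0 and 3 genes under 0.05 before adjustment. Skeletal muscle summed to 53.7 to 1383 CPM in PBS and 160 to 3399 CPM in PDT. The part of any of these cell types in the levels of Slc14a1 and Clca3a1 was not tested.

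Over all 19 lists, 130 genes were tested, 1 rose and 1 fell (Cd68 and Hspa4l) at an adjusted p under 0.05 by edgeR, where 0.235% of all tested genes were called (0.163% higher and 0.0723% lower). Before adjustment, 31 of the 130 had a p under 0.05 in edgeR, against 16.5% of all tested genes. DESeq2 called 12 of the 130, where it called 6.36% of the genes to which it gave an adjusted p.

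**Figure D4:**
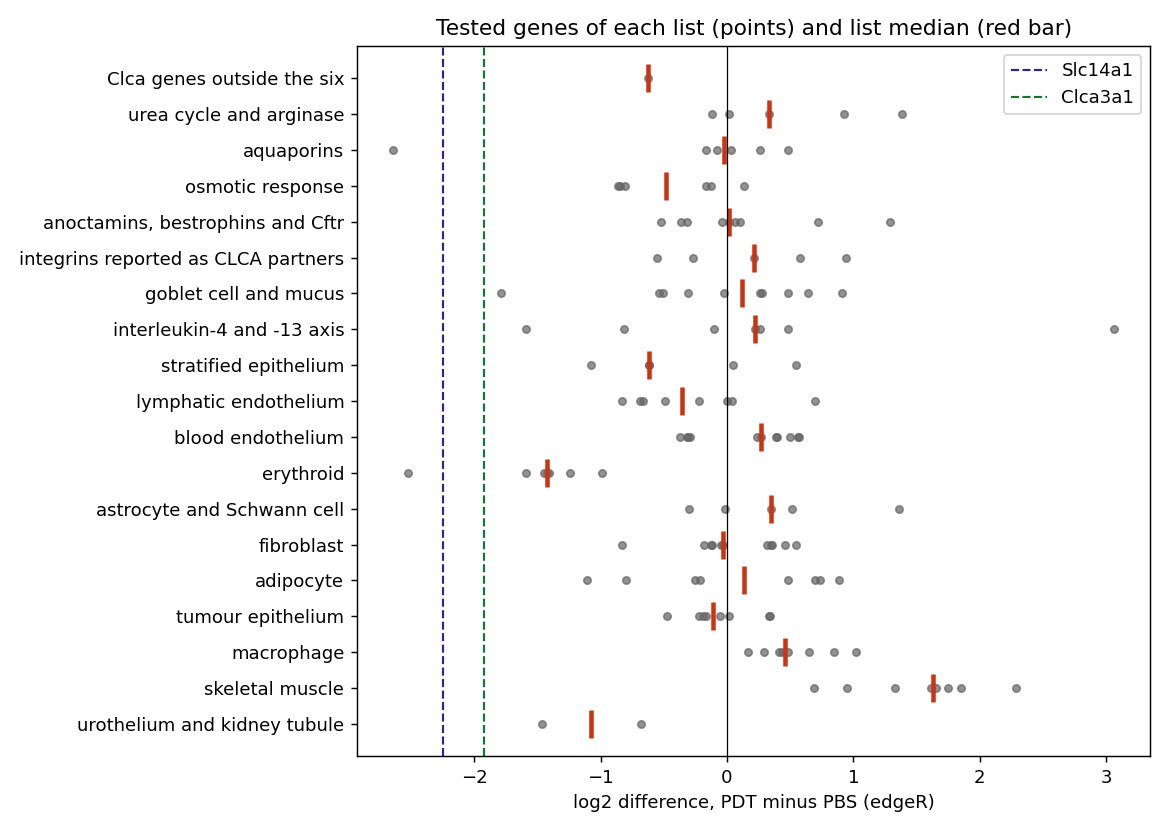
Log2 difference PDT minus PBS (horizontal axis) of each tested gene (grey points) in the 19 lists, with the list median as a red bar. Dashed lines mark Slc14a1 at −2.24 and Clca3a1 at −1.92. Both were chosen by this contrast, so their place below the median of every list is not a result.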

How the data were processed

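Directional libraries were prepared from rRNA-depleted total RNA of the 8 samples (per the labels' protocols). The table the authors deposited holds raw read counts per gene, per the file headers. Per the submitters' processing notes, GRCm39, STAR 2.7.11b and cutadapt 4.6 were used, in roles not stated. Counter, strand setting and annotation: not given in the sources used here. Between 77.9% and 83.8% of counts from 1 to 20 were even, so counts halved and rounded up were an alternative.

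Counts were fitted with R 4.3.3, edgeR 4.0.16 (filterByExpr, TMM, quasi-likelihood test, no covariate) and adjusted by Benjamini-Hochberg over 16588 genes, threshold 0.05. SE is the log2 difference over the root of F. CPM divides reads by the TMM-scaled library. Log2 CPM for profiles added 1 read. Exon lengths came from GENCODE M21 (GRCm38) by identifier. The fit was tested on simulated data. Alternatives were RLE scaling, no count filter, DESeq2 1.42.0, the replicate number as a block, halved counts and each library left out. The 6 genes, the lists and the alternatives were chosen with earlier results of these data known. Genes named were the 6, the other Clca genes, the 2 with the smallest p of each list, and the 4 nearest profiles of Slc14a1 and Clca3a1.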

Additional observations from a re-analysis of the deposited data

Results flagged for a closer look

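In a group of 4 libraries, a value was set aside for a closer look when its gap to the nearest other value exceeded 0.829 of the group's range. This was tested in 98 groups of genes named here, and 17 were found. For normally distributed values chance gives about 1 in 20, but CPM was used without logs and includes values near 0. Where only 1 library has reads the gap is the whole range, as for Slc14a2 and Clca4c-ps in PDT, so the 2 rates are not comparable. Among the Clca and urea transporter genes these were Slc14a2 in PDT 4 (0.196 CPM, 0 in the others), Clca2 in PBS 3 (2.42 CPM) and PDT 3 (2.59 CPM), Clca3b in PBS 2 (17.3 CPM), Clca4a in PDT 1 (0.288 CPM) and Clca4c-ps in PDT 2 (0.051 CPM). In PBS 3, Fcgbp (64.0 CPM) and Krt19 (948 CPM) were high and Itgam (9.62 CPM) and C1qa (119 CPM) low. In PDT 3, Aqp9 (2.59 CPM), Slc1a3 (4.82 CPM), Fabp4 (203 CPM) and Lep (3.66 CPM) were high. The others were Fabp4 in PBS 2 (151 CPM), Krt14 in PDT 4 (26.6 CPM) and Col1a1 in PDT 1, which was low at 2600 CPM. Neither Slc14a1 nor Clca3a1 had such a library.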

How the results depend on the processing

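The number of genes called was 39, and it was 534 with no count filter, 869 in DESeq2, 182 with the replicate number as a block, 67 with halved counts and 0 to 122 with 1 library left out. In edgeR it was 0 without PBS 3 and without PDT 1, where 2349 and 2162 genes had an unadjusted p under 0.05. The calls among list genes were 2, and 17 with no filter, 12 in DESeq2, 7 with the replicate block and 0 to 1 with 1 library left out. Same-numbered libraries correlated at 0.0344 to 0.0613 in their deviations from the group means. For each PBS library the best differently numbered PDT library was at 0.0521 to 0.125, below the same-numbered value only for replicate 4. Whether the numbers mark a batch or a pairing is not settled by this. With the replicate block the log2 difference was −2.20 for Slc14a1 and −1.87 for Clca3a1. Of 52 refitted differences of the 4 tested genes, 51 were below 0, and 1 moved by more than the spread between replicates, Clca2 without PDT 3. Of 536 refits of the other named genes, 470 kept direction and call, 30 lost a call, 29 gained one and 7 turned. Those 7 were Fcgbp (0.30), Krt14 (0.23) and Dsg3 (0.43) without PBS 3, Slc1a3 with the block (−0.053) and without PDT 3 (−0.62), Fabp4 without PDT 3 (−0.15) and Lep without PBS 2 (0.94). With 1 library left out, these ranged from −2.32 to 0.30 for Fcgbp, −1.04 to 0.23 for Krt14, −1.73 to 0.43 for Dsg3, −0.62 to 0.86 for Slc1a3, −0.15 to 2.02 for Fabp4 and −3.16 to 0.94 for Lep. Depth limits Slc14a2, Clca1 and Clca3a2, which had 8, 98 and 172 reads in all.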
